A study of Mus musculus with 4 samples.

Results

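Nuclei from the hippocampus of mice that carry a mutant human tau transgene and overexpress the sorting receptor SORLA (TG_PS19) were compared with nuclei of wild-type (WT) mice, cell class by cell class. The comparison was between 1 TG_PS19 library, with 8963 nuclei kept, and 1 WT library, with 11458, together 20421 of the 29616 nuclei kept in the study. Its other 2 libraries were replicates of PS19 mice, which carry the tau transgene without the SORLA transgene, and gave the spread between libraries. Each library was a droplet-based single-nucleus RNA sequencing run of frozen hippocampus, and the data are counts of unique molecular identifiers (UMIs), each standing for 1 captured RNA molecule. Per the labels, the PS19 line carries human MAPT with the P301S change in the 1N4R isoform, driven by the prion protein gene (Prnp) promoter, on a mixed B6;C3 background. The SORLA transgene sits in the Rosa26 locus under a CMV/β-actin promoter, so it is not restricted to one cell type. The groups were littermates of the crosses, and tissue of each group was pooled. Age, sex and the number of animals per pool are not given in the sources used here. Whether the PS19 replicates came from separate pools is not given either, so p-values measure only the spread between these libraries, which may be technical. No library carried the SORLA transgene without tau, so that against WT the effects of the 2 transgenes cannot be told apart.

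Tau is a microtubule-binding protein of neurons that detaches and aggregates in tauopathies, and the P301S change speeds this process. In tau models, microglia and astrocytes take on reactive states marked by genes of lipid handling, complement and interferon response. SORLA is a receptor of the VPS10P-domain family that, together with the retromer complex, moves cargo between endosomes, the Golgi apparatus and the cell surface. The comparison asked which differences of PS19 from WT were also present in TG_PS19 mice, and which differences appeared in TG_PS19 mice alone.

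The libraries held 20064025 to 48670533 UMIs, with medians of 2643 to 3708.5 UMIs per nucleus, and 11 classes had at least 50 nuclei in every library. Between any 2 libraries, 5 to 32 cell barcodes were shared, of 4643 to 12762. The TG_PS19 library stood apart in its sex-linked RNA. Xist, the RNA that coats the inactive X chromosome of female cells, was found in 55.2% of TG_PS19 nuclei and in 0.82% to 1.46% of nuclei of the other libraries. RNA of Y-linked genes was found in 28.4% of TG_PS19 nuclei and in 68.6% to 76.8% of the others. X- and Y-linked genes were therefore left out of the counts over all genes, while the gene lists kept their X-linked members, and autosomal genes were also measured in the 2088 named TG_PS19 nuclei with Y-linked UMIs and no Xist UMI (Y-linked nuclei, 25.8%) and in the 4004 with Xist UMIs and no Y-linked UMI (Xist nuclei, 49.4%). The comparison of Xist nuclei was added after the data had been seen. Human SORL1 was found in both kinds, at 44.2 CPM (UMIs per 1000000 UMIs of the class sums) in Y-linked nuclei and 84.1 CPM in Xist nuclei, with 2 UMIs in the whole WT library. Human MAPT was at 14 CPM in Y-linked nuclei, 10.6 CPM in Xist nuclei and 0 UMIs in WT. With these counts in WT, at most a few mouse reads were counted under the human genes, and whether reads of the transgenes were counted under the mouse genes was not tested. Sex and animal cannot be told apart in this split, and it has no replicate.

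Over all 11 classes, 2578 of 127977 pairs of class and autosomal gene differed between TG_PS19 and WT (2.01%), 1834 higher (1.43%) and 744 lower (0.581%) in TG_PS19. The test was edgeR's quasi-likelihood F-test on UMIs summed per library and class, at a Benjamini-Hochberg adjusted p of 0.05 within a class. All 4 libraries entered it, and the lone WT and TG_PS19 libraries were assumed to vary like the PS19 pair. The same test called 3919 pairs between PS19 and WT (3.06%). Without adjustment, 10.5% of all pairs had an edgeR p under 0.05 between TG_PS19 and WT, which is the background for the unadjusted counts given with lists of 0 calls. A difference was counted as remaining when PS19 and TG_PS19 both differed from WT in the same direction, which held for 480 pairs (0.375%), 275 higher and 205 lower. It was counted as new when TG_PS19 differed in the same direction from WT and from PS19, lay outside the range of the other 3 libraries and PS19 did not differ from WT, which held for 1321 pairs (1.03%), 1080 higher and 241 lower. It was counted as not carried when PS19 differed from WT, TG_PS19 differed from PS19 in the opposite direction and no difference of TG_PS19 from WT was called, which held for 1729 pairs (1.35%), 886 higher and 843 lower in PS19. These comparisons share libraries, so their counts are not independent. For remaining pairs, a property of the 1 WT library and an effect of tau cannot be told apart. DESeq2 on the same sums called 102 pairs between TG_PS19 and WT (0.0797%), with 17 remaining, 62 new and 183 not carried. Of 138 pairs of gene and class described singly that edgeR called, DESeq2 called 16. These were Gm43049 in granule neurons, CA1 neurons, oligodendrocytes and their precursors, Mir6236 in granule neurons, oligodendrocytes and astrocytes, Gm44511 and Scg2 in granule neurons, Adam11, Sgk1, Zbtb16, Gm29237 and Gm44511 in oligodendrocytes, Zbtb16 in astrocytes and Cyp26b1 in fibroblasts. Every other named difference between TG_PS19 and WT rests on edgeR's test. The balance of directions depended on the scaling and on the doublets. With library totals in place of trimmed-mean scaling, 44.0% of the TG_PS19 differences were higher rather than 71.1%, and 38.0% rather than 57.3% of remaining and 52.5% rather than 81.8% of new ones, as all genes shifted by -0.151 (log2) in astrocytes and by over 0.1 also in dentate granule neurons, oligodendrocytes and their precursors. With doublets kept, 47.0% of the remaining differences were higher, and 39.1% rather than 51.2% of those not carried. Of the fewer DESeq2 calls, 86.3% of the TG_PS19 differences, 76.5% of the remaining, 93.5% of the new and 63.9% of those not carried were higher.

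Dentate granule neurons, the principal cells of the dentate gyrus, had 943 differences from WT (5.62% of the genes tested), of which 121 were remaining and 539 new. Oligodendrocytes had 416 (2.66%), with 115 remaining and 213 new, and astrocytes 363 (2.26%), with 53 and 206. CA1 pyramidal neurons had 302 (2.27%), with 27 and 163, and fibroblasts 239 (2.08%), with 71 and 73. Inhibitory neurons had 164 (1.33%), microglia 63 (0.611%), oligodendrocyte precursors 49 (0.394%), endothelial cells 25 (0.332%) and Cajal-Retzius neurons 14 (0.237%). Mural cells had 0 by edgeR (0.0%), where 339 genes were below 0.05 before adjustment and DESeq2 called 0. Differences of PS19 that were not carried lay mostly in glia, with 523 in astrocytes, 462 in microglia and 379 in oligodendrocytes against 180 in dentate granule neurons. Classes differ in the number of nuclei and UMIs, which sets how small a difference could be called.

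**Figure D1:**
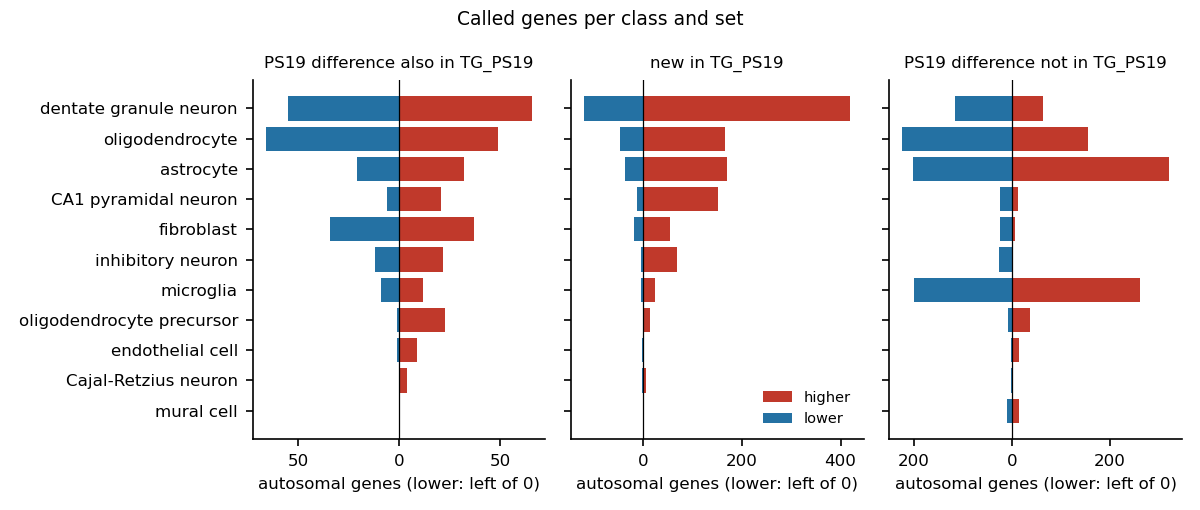
Number of autosomal genes per class (horizontal axis, lower genes left of 0 and higher genes right of 0), each panel with its own scale. The panels show genes counted as remaining (left), new (middle) and not carried (right) by the rules given above. For genes not carried, the direction is that of PS19 against WT. Dentate granule neurons held 420 of the 1080 new higher genes, and astrocytes and microglia held 320 and 262 of the 886 higher genes that were not carried.

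The remaining differences seen in most classes were those of the non-coding genes Gm43049 and Mir6236, each called in 7 classes. Gm43049 is a long intergenic non-coding RNA (chromosome 3, 140692038 to 140760704, minus strand, GRCm38). In dentate granule neurons it was counted 0 times in WT, at 48.8 and 48.3 CPM in the PS19 replicates and at 96.0 CPM in TG_PS19. Both tau-carrying groups lay above WT, and TG_PS19 was higher than the PS19 pair by 0.98 ± 0.13 (log2, SE; edgeR adjusted p = 1.82e-12). Where WT had 0 UMIs, folds were set against a chosen floor of 3 counts in WT, and the counting error of TG_PS19 did not enter them. On this floor, the TG_PS19 level was at least 337-fold higher in dentate granule neurons, 49.9-fold in oligodendrocyte precursors and 41.4-fold in inhibitory neurons. It was at least 30.8-fold higher in oligodendrocytes, 27.7-fold in astrocytes and 10.3-fold in Cajal-Retzius neurons. CA1 neurons had 2 UMIs in WT and 174 CPM in TG_PS19. Y-linked and Xist nuclei of dentate granule neurons gave 107 and 90.0 CPM. Within 5 Mb of this gene 69 genes gave 364 tested pairs, of which 9 were called between TG_PS19 and WT (2.47%, against 2.01% of all pairs) and 21 between PS19 and WT (5.77%, against 3.06%). Within 2 Mb, 5 of 86 pairs (5.81%) and 14 of 86 (16.3%) were called. Among them, the neighbouring non-coding Gm32754 was counted 0 times in WT CA1 neurons and was at least 13.1-fold higher in TG_PS19. Unc5c, a netrin receptor that guides axons, was at 520 CPM in WT CA1 neurons, 311 and 265 in PS19 and 324 in TG_PS19, with WT above all the others (log2 difference of TG_PS19 from WT -0.68 ± 0.15, edgeR adjusted p = 0.000907).

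With Gm43049, 17 genes were counted as remaining in 3 or more classes, 16 of them higher than WT. Rps3a3, a processed pseudogene of a ribosomal protein gene that lies within Pde4d on the same strand, was counted 0 times in WT astrocytes and granule neurons. It was at 12.8, 10.8 and 10.1 CPM in oligodendrocytes of the PS19 replicates and TG_PS19, against 0.147 CPM (1 UMI) in WT. In granule neurons it was at 10.2 and 9.50 CPM in the PS19 replicates and at 3.34 CPM with both transgenes, with 8.24 CPM in Y-linked nuclei and 1.12 CPM in Xist nuclei. Counts of a pseudogene can come from near-identical copies, so that its level is uncertain. Pisd, which encodes the mitochondrial enzyme that makes phosphatidylethanolamine, was at 128 CPM in WT granule neurons, 217 and 179 in PS19 and 276 in TG_PS19. WT was the lowest of the 4 libraries and TG_PS19 the highest (1.11 ± 0.12, edgeR adjusted p = 5.91e-18), and the gene was called in 6 classes. The non-coding genes Gm37376 and Mir6236 were higher in 6 and 7 classes, Gm37376 at 54.8, 84.7, 128 and 167 CPM in WT, the PS19 replicates and TG_PS19 granule neurons. Gm29237, annotated antisense to Sptbn1, rose in 5 classes, from 11.6 CPM in WT oligodendrocytes to 25.8 and 38.0 in PS19 and 43.3 in TG_PS19. Whether the authors counted by strand is not given in the sources used here, so reads of this gene and of Sptbn1 cannot be told apart. The only lower gene of the 17 was Vtn, which encodes the adhesion protein vitronectin of pericytes and plasma. It was at 53.1 CPM in WT astrocytes, 23.2 and 21.7 in PS19 and 23.9 in TG_PS19, with the tau-carrying libraries close together and below WT (-1.15 ± 0.21, edgeR adjusted p = 1.84e-05), and both kinds of TG_PS19 nuclei were lower than WT in astrocytes, oligodendrocytes and granule neurons.

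In dentate granule neurons, 66 remaining genes were higher and 55 lower. Bdnf, the neurotrophin that supports synaptic plasticity, was at 101 CPM in WT, 77.4 and 73.1 in the PS19 replicates and 65.1 in TG_PS19. All tau-carrying libraries lay below WT (TG_PS19 against WT -0.64 ± 0.13, edgeR adjusted p = 9.49e-05), and Y-linked nuclei alone gave -0.50 with an edgeR adjusted p of 0.0693. Grm3, an inhibitory metabotropic glutamate receptor, was at 101, 70.4, 77.8 and 62.6 CPM, again highest in WT and lowest in TG_PS19 (-0.69 ± 0.13, edgeR adjusted p = 1.77e-05). Gabrd, the delta subunit of extrasynaptic GABA-A receptors that is typical of granule neurons, was at 76.4, 51.5, 52.0 and 54.3 CPM (-0.49 ± 0.14, edgeR adjusted p = 0.0101), and the endoplasmic reticulum chaperone Hspa5 at 68.5, 50.6, 44.5 and 47.2 CPM (-0.54 ± 0.14, edgeR adjusted p = 0.00569). In both genes WT was the highest library and TG_PS19 lay within or next to the PS19 pair, and neither was called in Y-linked nuclei alone, where the log2 differences were -0.38 and -0.54. Sorcs2, a VPS10P-domain receptor related to SORLA, was at 55.1 CPM in WT and 80.3, 89.5 and 84.7 CPM in the others (0.62 ± 0.13, edgeR adjusted p = 0.000225), with 67.6 CPM and no call in Y-linked nuclei and 91.4 CPM in Xist nuclei. Npas2, a clock transcription factor, was at 65.6, 41.1, 49.1 and 46.3 CPM (-0.50 ± 0.14, edgeR adjusted p = 0.0131).

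Of the sterol synthesis genes that were lower in PS19 astrocytes, some were also lower in TG_PS19 and some were not carried. Of 18 genes tested, 4 were lower in TG_PS19 than in WT and 0 higher, beside 0.605% of all astrocyte genes lower, and the median log2 difference was -0.45 (all astrocyte genes -0.0047). Before adjustment 11 had an edgeR p under 0.05, 0 of them higher, beside 1863 of all 16029 astrocyte genes. DESeq2 called 0 in either comparison with WT. With library totals as scaling 9 were lower and the median was -0.60 (all astrocyte genes -0.155), so the number called depended on the scaling. The PS19 pair had 13 of 18 lower against the same WT library, beside 2.64% of all astrocyte genes, with a median of -0.85. Of these, 4 remained and 5 were not carried (Cyp51, Idi1, Insig1, Sc5d and Sqle). Against PS19, 5 of the 18 were higher in TG_PS19, beside 844 of all 16029 astrocyte genes. Fdps, which makes farnesyl diphosphate, was at 26.1 CPM in WT, 11.0 and 11.7 in PS19 and 10.9 in TG_PS19. The TG_PS19 level lay next to the PS19 pair, and WT stood apart (-1.26 ± 0.28, edgeR adjusted p = 0.00107). Hmgcs1, an early enzyme of the mevalonate pathway, was at 86.0, 42.5, 42.2 and 53.4 CPM (-0.69 ± 0.17, edgeR adjusted p = 0.00763), and Fdft1, which makes squalene, at 80.1, 47.2, 52.4 and 52.5 CPM (-0.61 ± 0.17, edgeR adjusted p = 0.0283). WT was the highest library for each of these 3 genes. Y-linked and Xist nuclei lay on the same side for Fdps, at 10.8 and 10.6 CPM, and the list median was -0.34 and -0.46 in them. In oligodendrocytes 0 of 18 sterol genes differed from WT by edgeR, 0 of them before adjustment, and DESeq2 called 0.

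Several genes that respond to glucocorticoid hormones remained higher in TG_PS19 oligodendrocytes, and fewer in astrocytes. Glucocorticoids, the steroid hormones of the stress and daily rhythm axis, act through a nuclear receptor that induces Fkbp5, Sgk1, Zbtb16, Pdk4 and others. In oligodendrocytes 7 of 16 listed genes were higher in TG_PS19 than in WT and 0 lower (Arrdc2, Cdkn1a, Fkbp5, Pdk4, Sgk1 and Zbtb16 on autosomes and Tsc22d3 on the X chromosome), beside 1.77% of all oligodendrocyte genes higher and 0.89% lower, with a median of 0.51 (all genes -0.019). The PS19 pair had 11 of 16 higher, beside 2.32% of all genes, with a median of 1.06, and 5 of them were not carried (Hif3a, Mt1, Nfkbia, Per1 and Plin4). In astrocytes 3 of 16 were higher and 0 lower (Fkbp5, Zbtb16 and the X-linked Tsc22d3), beside 1.66% of all astrocyte genes higher, with a median of 0.15 that became -0.0046 with library totals as scaling, and PS19 had 8 higher, beside 3.16% of all genes. Of these 8, 4 were not carried (Cdkn1a, Mt1, Mt2 and Nfkbia). The list was not counted in the other glial or vascular classes.

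Sgk1, a kinase that regulates ion transport, was at 59.6 CPM in WT oligodendrocytes, 200 and 182 in PS19 and 169 in TG_PS19. WT stood below the 3 other libraries (1.51 ± 0.15, edgeR adjusted p = 1.39e-10). Split by sex-linked RNA, the same TG_PS19 library gave 33.6 CPM in 790 Y-linked nuclei and 339 CPM in 1144 Xist nuclei, so that Y-linked nuclei lay below WT (-0.83, edgeR adjusted p = 0.0173) and Xist nuclei above the PS19 pair. Zbtb16, a zinc finger transcription factor, was at 58.6 CPM in WT, 274 and 288 in PS19 and 220 in TG_PS19 (1.91 ± 0.15, edgeR adjusted p = 2.83e-14), and at 73.1 and 394 CPM in Y-linked and Xist nuclei. Fkbp5, a co-chaperone that dampens the glucocorticoid receptor, was at 23.2, 69.6, 72.5 and 52.6 CPM (1.18 ± 0.18, edgeR adjusted p = 9.78e-06), with 20.3 and 89.7 CPM in the parts. Pdk4, which restrains the use of pyruvate in mitochondria, was at 39.7, 83.6, 79.9 and 76.3 CPM (0.94 ± 0.16, edgeR adjusted p = 0.000103), with 38.9 and 128 CPM. For these 4 genes the Y-linked nuclei were near or below the WT level and the Xist nuclei were above every library. Over the list, Y-linked nuclei had 0 genes higher and 3 lower than WT (median -0.18), and Xist nuclei had 11 higher and 0 lower (median 1.12). The background in oligodendrocytes was 1.23% higher and 0.864% lower in Y-linked nuclei and 2.17% and 1.18% in Xist nuclei.

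Single genes of this kind were split in the same way in other classes. In astrocytes, Zbtb16 was at 48.2 CPM in WT, 103 and 109 in PS19 and 128 in TG_PS19 (1.41 ± 0.17, edgeR adjusted p = 7.32e-14), with 41.1 CPM in Y-linked and 201 CPM in Xist nuclei. Fkbp5 in fibroblasts was at 239 CPM in WT, 505 and 524 in PS19 and 484 in TG_PS19 (1.02 ± 0.19, edgeR adjusted p = 2.92e-05), with 115 and 650 CPM. In microglia it was at 138, 232, 223 and 270 CPM (0.97 ± 0.22, edgeR adjusted p = 0.00715), with 109 and 373 CPM. In each of these classes WT was the lowest library, the Y-linked TG_PS19 nuclei were below WT and the Xist nuclei above the PS19 pair. Cyp26b1, which degrades retinoic acid, was at 9.48 CPM in WT fibroblasts, 75.2 and 66.3 in PS19 and 126 in TG_PS19 (3.72 ± 0.37, edgeR adjusted p = 2.42e-20), and rested on Xist nuclei at 181 CPM, with 1 UMI in the 68 Y-linked nuclei. Endothelial Fkbp5, at 33.7, 135, 161 and 156 CPM, likewise had 1 UMI in 34 Y-linked nuclei against 182 CPM in Xist nuclei. Per2, a clock gene that glucocorticoids also induce, was at 3.81, 12.2, 10.9 and 9.97 CPM in oligodendrocytes (1.38 ± 0.37, edgeR adjusted p = 0.0218), with 2.90 and 17.2 CPM in the parts. Granule neurons differed, with Zbtb16 at 200, 263, 280 and 262 CPM (0.39 ± 0.12, edgeR adjusted p = 0.0212) and at 241 and 275 CPM in the parts, and Sgk1 lowest in TG_PS19, at 69.2, 65.8, 64.3 and 43.6 CPM (-0.67 ± 0.14, edgeR adjusted p = 0.000188).

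**Figure D2:**
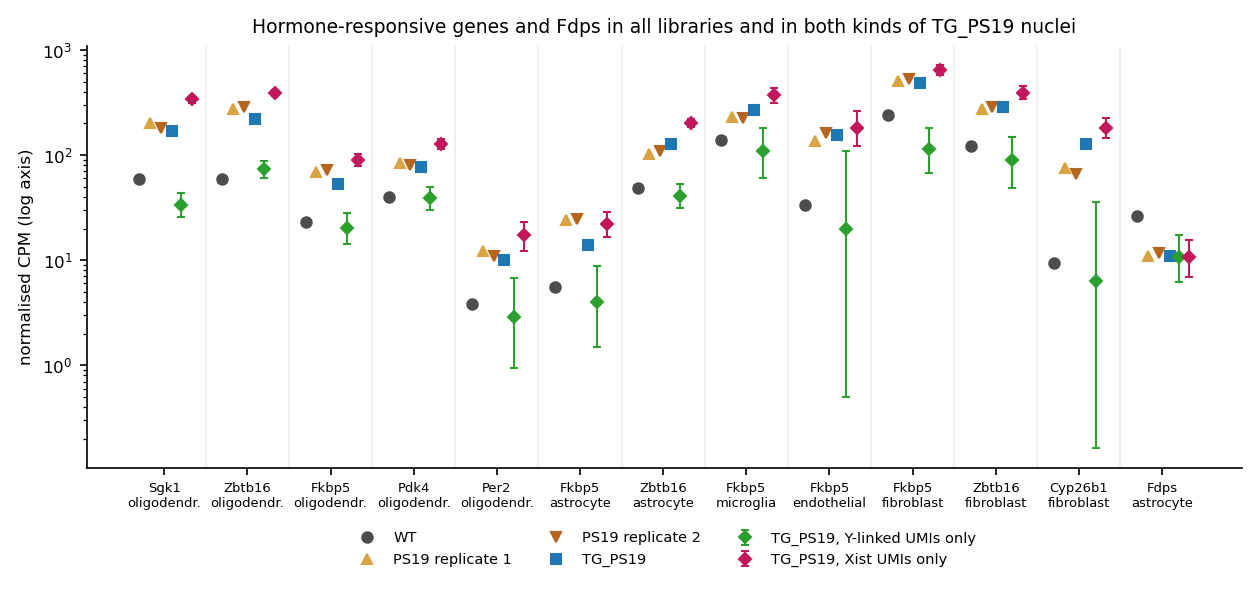
Normalised CPM on a log axis of hormone-responsive genes and the sterol gene Fdps, per class, in the 4 libraries (circles, triangles and squares) and in the TG_PS19 nuclei with Y-linked or with Xist UMIs only (diamonds, bars are 95% Poisson intervals of the summed counts and cover counting error only). For Sgk1 in oligodendrocytes the Y-linked nuclei were at 33.6 CPM and the Xist nuclei at 339 CPM, with WT at 59.6 CPM, while for the sterol gene Fdps in astrocytes both kinds lay below WT.

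Over all remaining genes, 274 of the 275 higher pairs could be tested in both kinds of nuclei. Of these, 117 were called in Y-linked nuclei, 234 in Xist nuclei and 94 in both, with medians of 0.86 and 1.24, where 0.833% and 1.7% of all pairs were called higher. The gap was wide in endothelial cells, where 0 of 9 were called in Y-linked nuclei and 9 in Xist nuclei with medians of -1.03 and 2.21 on 34 and 112 nuclei, and in fibroblasts, with 7 and 36 of 37 called and medians of 0.28 and 1.42 on 68 and 223 nuclei. The 205 lower pairs gave 91, 147 and 64 calls and medians of -0.85 and -0.90, beside 0.379% and 0.711% of all pairs, and 202 of them lay below WT in both kinds. These pairs were chosen by calls in the whole TG_PS19 library, in which Xist nuclei are the larger part, and fewer nuclei give fewer calls, so that neither the counts nor the medians test a difference between the kinds. The WT and PS19 libraries were made almost wholly of nuclei without Xist, and no WT or PS19 nuclei of the other kind were at hand for comparison.

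Reactive glial genes were mostly not carried by TG_PS19. In microglia, 0 of 18 disease-associated genes differed from WT by edgeR, 3 of them had an unadjusted p below 0.05, and DESeq2 called 0. Their median was -0.34, and PS19 against the same WT library had 13 higher by edgeR, beside 4.03% of all microglial genes, with a median of 1.74. In PS19, DESeq2 called 5 of the 18. Gpnmb, a membrane protein of lipid-laden phagocytes, was counted 0 times in WT and in TG_PS19 and was at 84.0 and 28.0 CPM in the PS19 replicates. Its 54 and 22 UMIs there came from 10 and 5 nuclei, with 17 of them in 1 nucleus of each replicate. Lpl, a lipase, was at 6.13, 94.8, 68.8 and 5.96 CPM, and Itgax at 5.11, 49.8, 45.9 and 2.98 CPM, with WT and TG_PS19 low and the PS19 pair high. In a finer clustering (Leiden resolution 2.0), one microglial cluster held 557, 52, 56 and 395 nuclei and another 30, 205, 224 and 15. More cells of one kind and more RNA per cell therefore cannot be told apart in the microglial sums. The homeostatic list gave 0 of 12 called by edgeR, 1 below 0.05 before adjustment and 0 by DESeq2 (median -0.13). PS19 had 9 of these lower by edgeR, beside 3.57% of all genes, and 3 called by DESeq2. The purinergic receptor P2ry12 of this list was at 1350.4, 858, 827 and 1221 CPM, lower in the PS19 pair than in WT and TG_PS19. Of 17 interferon-stimulated genes in microglia 0 were called by edgeR, 1 was below 0.05 before adjustment and DESeq2 called 0. PS19 had 11 of these higher by edgeR, beside 4.03% of all microglial genes, and DESeq2 called 0 there too. In astrocytes the same list gave 0 of 18 by edgeR, 2 before adjustment and 0 by DESeq2. PS19 had 12 of these higher by edgeR, beside 3.16% of all genes, and 2 called by DESeq2. In oligodendrocytes the list gave 0 of 11 by edgeR in both comparisons with WT, 4 before adjustment in TG_PS19 and 6 in PS19, and 0 by DESeq2 in both, so that no called difference of PS19 was there to be carried.

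Astrocytes gave 0 of 14 reactive genes by edgeR, 0 before adjustment and 0 by DESeq2 (median -0.09), and PS19 had 11 higher by edgeR, beside 3.16% of all astrocyte genes, with a median of 2.13. In PS19, DESeq2 called 8 of the 14. Gfap, the intermediate filament of reactive astrocytes, was at 121 CPM in WT, 554 and 542 in PS19 and 109 in TG_PS19, and Vim, its partner filament, at 10.0, 57.8, 57.7 and 10.7 CPM. Both were high in the PS19 pair alone, and the Y-linked and Xist nuclei stayed near WT, at 113 and 103 CPM for Gfap. The class sums pool 3 clusters, and the cluster led by Gfap and Myoc held 487 of the 2737 WT astrocytes, 266 of 619 and 303 of 695 PS19 astrocytes and 271 of 1643 TG_PS19 astrocytes, so that more such astrocytes and more Gfap RNA per astrocyte cannot be told apart in these sums. Complement C4b in oligodendrocytes was at 29.9, 312, 242 and 24.0 CPM, and of the 12 disease-associated oligodendrocyte genes 0 were called by edgeR, 4 before adjustment and 0 by DESeq2. PS19 had 5 of these higher by edgeR, beside 2.32% of all oligodendrocyte genes, and 4 called by DESeq2. A few microglial differences did remain. Colec12, a scavenger receptor, was at 54.1 CPM in WT, 566 and 583 in PS19 and 149 in TG_PS19 (1.46 ± 0.28, edgeR adjusted p = 0.000833), and Mmp28, a matrix metalloproteinase, at 81.7, 14, 8.92 and 20.9 CPM (-1.96 ± 0.40, edgeR adjusted p = 0.00198). For both, TG_PS19 lay between WT and the PS19 pair. In oligodendrocytes the cell cycle inhibitor Cdkn1a also stood in between, at 0.586, 21, 25.1 and 4.74 CPM (2.97 ± 0.61, edgeR adjusted p = 0.00164). An absent call does not show equal levels, and the range of the disease-associated microglial list against WT ran from -3.76 to 0.28.

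**Figure D3:**
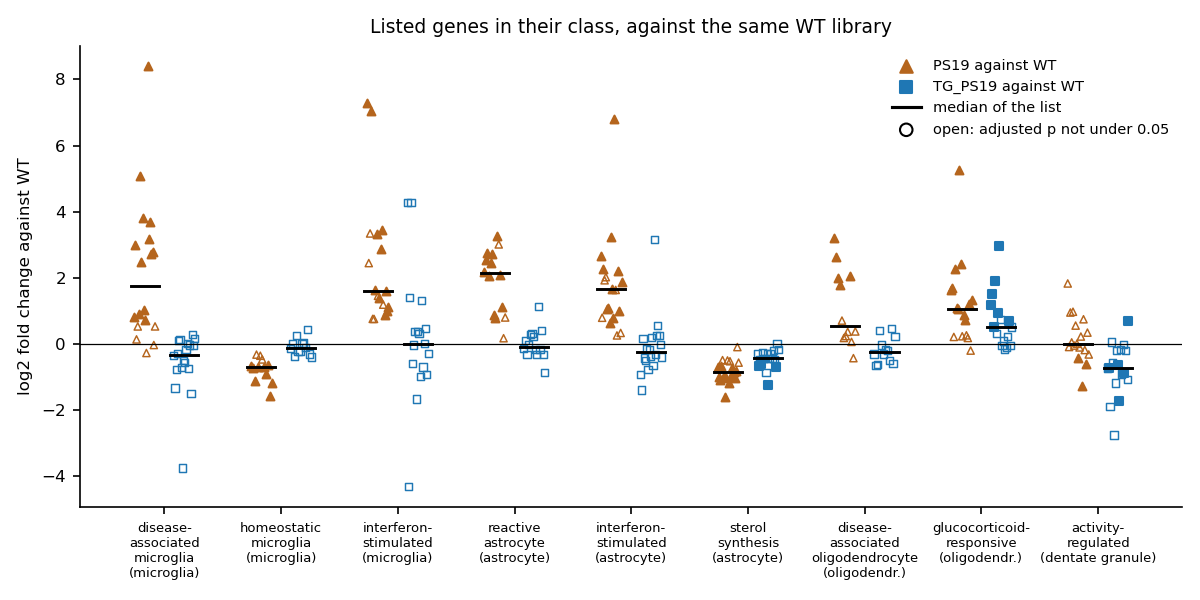
Log2 difference from the shared WT library (vertical axis) of the listed genes in their class, for PS19 (triangles) and TG_PS19 (squares), filled where the edgeR adjusted p was under 0.05 and with a line at the median of each list. Genes with 0 UMIs in one group enter as fitted values, which are not bounds. The reactive astrocyte list has a median of 2.13 in PS19 and -0.09 in TG_PS19, and the glucocorticoid list in oligodendrocytes medians of 1.06 and 0.51.

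Differences new in TG_PS19 were most frequent in dentate granule neurons, and among genes driven by neuronal activity 3 were new and lower and 1 new and higher. Of 17 activity-regulated genes tested, 4 were lower (Junb, Nptx2, Scg2 and the remaining Bdnf) and 1 higher (Inhba) in TG_PS19 than in WT, beside 1.78% of all genes lower and 3.84% higher in this class. The median was -0.73 (all genes -0.00096), and PS19 against the same WT had a median of -0.0019 with 3 lower, beside 1.63% of all genes. Scg2, a secretogranin of dense-core vesicles, was at 110 CPM in WT, 105 and 89.1 in PS19 and 59.4 in TG_PS19. TG_PS19 lay below the 3 other libraries (-0.89 ± 0.13, edgeR adjusted p = 3.51e-09), and Y-linked and Xist nuclei gave 47.8 and 63.4 CPM. Nptx2, a pentraxin that gathers AMPA receptors at synapses, was at 6.49, 7.26, 5.0 and 1.93 CPM (-1.75 ± 0.44, edgeR adjusted p = 0.00304), and Junb, a subunit of the AP-1 transcription factor, at 22.4, 21.3, 20.5 and 13.5 CPM (-0.73 ± 0.21, edgeR adjusted p = 0.0171). Both were lowest in TG_PS19. Inhba, which encodes an activin subunit, was at 114 CPM in WT, 85.8 and 95.6 in PS19 and 185 in TG_PS19, where it was above all others (0.69 ± 0.12, edgeR adjusted p = 1.10e-06). In CA1 neurons, looked at after the granule neurons had been seen, Inhba was also highest in TG_PS19, at 92.7, 57.4, 65.6 and 146 CPM (0.66 ± 0.18, edgeR adjusted p = 0.0205).

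Single receptor and synaptic genes of granule neurons were called in both directions. In this class 3.84% of all genes were higher and 1.78% lower, which comes to under 1 gene in any of the lists of receptor, synaptic, sorting, clock or chaperone genes, so that a single call says nothing about its list. Of 19 glutamate receptor genes 2 were higher, among them Grik3, and Grm3 was lower, and of 11 GABA-A receptor genes Gabrg3 was higher and 3 were lower, among them Gabrd. Gabrg3, a GABA-A receptor gamma subunit, was at 151 CPM in WT, 131 and 159 in PS19 and 202 in TG_PS19 (0.42 ± 0.12, edgeR adjusted p = 0.0109). TG_PS19 was the highest library, and the call was lost with library totals as scaling. Nrgn, a calmodulin-binding protein of dendrites, was at 230, 209, 212 and 168 CPM (-0.46 ± 0.12, edgeR adjusted p = 0.00393). Of 18 presynaptic genes Rab3a, a synaptic vesicle GTPase, was lower (15.8, 13.4, 11.8 and 8.73 CPM), and of 14 genes of VPS10P receptors and retromer Vps29, a retromer subunit, was lower (59.0, 65.6, 61.3 and 43.0 CPM; -0.46 ± 0.14, edgeR adjusted p = 0.0315) and Sorcs2 higher. Among 16 clock genes, Hlf was higher (61.4, 62.2, 69.3 and 85.6 CPM) beside the lower Npas2, and among 12 heat shock chaperones Hspa5 was lower and 0 higher. Psap, the precursor of the lysosomal saposins, was at 153, 157, 106 and 92.3 CPM in granule neurons (-0.73 ± 0.12, edgeR adjusted p = 6.29e-07) and was also new and lower in oligodendrocytes, at 213, 255, 175 and 137 CPM, and astrocytes, at 328, 358, 234 and 213 CPM. The PS19 pair was split in each of these classes, with replicate 1 above WT and replicate 2 between WT and TG_PS19. Svil, which encodes the actin-binding protein supervillin, was at 39.4, 44.7, 43.3 and 17.7 CPM (-1.15 ± 0.18, edgeR adjusted p = 4.17e-08), and at 17 and 17.1 CPM in Y-linked and Xist nuclei. No oxidative phosphorylation gene of 21 and no tau kinase gene of 19 was called by edgeR in this class, where 6 and 3 were below 0.05 before adjustment and DESeq2 called 0 of either.

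**Figure D4:**
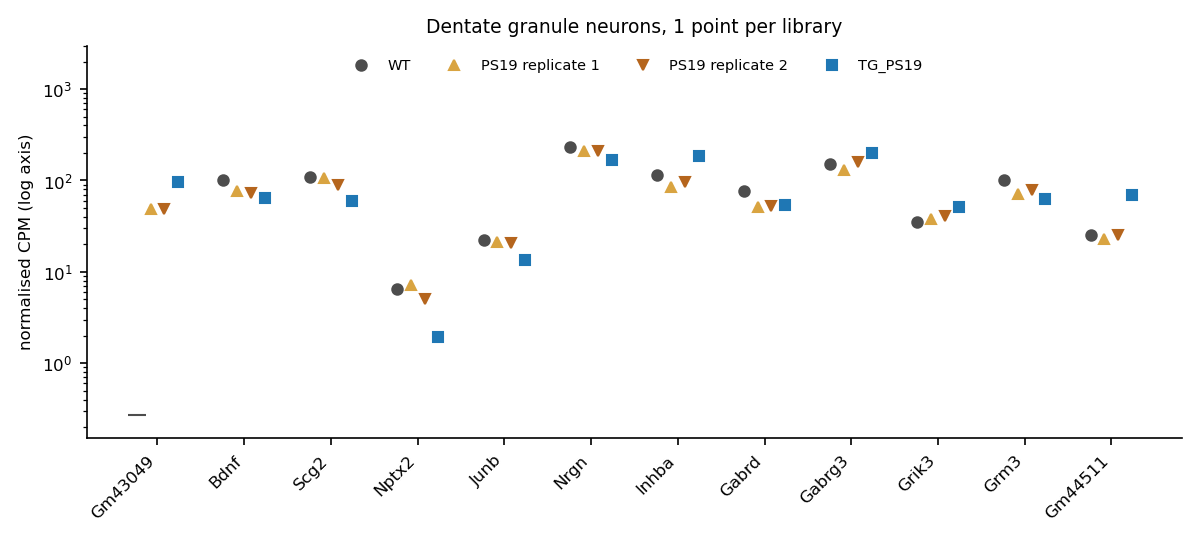
Normalised CPM on a log axis of remaining and new genes in dentate granule neurons, with 1 point per library. The dash for Gm43049 marks the level of 3 counts in the WT library, which had 0 UMIs. Scg2, Nptx2 and Junb are lowest in TG_PS19, Inhba and Gm44511 highest, and Bdnf falls from 101 CPM in WT to 65.1 CPM in TG_PS19 with the PS19 pair in between.

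Outside granule neurons, 2 large new falls in glia were singled out after their values had been seen. Adam11 (chromosome 11, 102761439 to 102780262, plus strand), which encodes a catalytically inactive membrane protein of the ADAM family, was at 147 CPM in WT oligodendrocytes, 161 and 135 in PS19 and 14.5 in TG_PS19. The TG_PS19 library stood far below all others (-3.34 ± 0.19, edgeR adjusted p = 4.53e-21), at 15.7 and 15.9 CPM in Y-linked and Xist nuclei, and all 10 alternatives kept the call. In dentate granule neurons the same gene was at 31.3, 35.6, 28.0 and 25 CPM and was not called. Agt, which encodes angiotensinogen, was at 41.7 CPM in WT astrocytes, 64.1 and 35.7 in PS19 and 16.5 in TG_PS19 (-1.34 ± 0.22, edgeR adjusted p = 2.05e-06), and both kinds of nuclei were low, at 12.1 and 15.7 CPM. Tnfrsf1a, the receptor for tumour necrosis factor, was at 11.2, 18.9, 14.4 and 4.74 CPM in astrocytes (-1.24 ± 0.37, edgeR adjusted p = 0.0428). Actg1, the cytoplasmic gamma actin, fell in oligodendrocytes and astrocytes, at 72.7, 66.9, 49.3 and 31.2 CPM in the first and 69.4, 69.6, 65.0 and 38.3 CPM in the second, with TG_PS19 lowest in both.

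Inhibitory neurons had 4 of 18 listed type genes lower and 0 higher, beside 0.26% of all genes lower in that class, with a median of -0.41 (all genes 0.0039). Ndnf and Reln, markers of neurogliaform interneurons, were at 159, 122, 79.3 and 30.6 CPM (-2.37 ± 0.31, edgeR adjusted p = 2.12e-11) and at 702, 615, 758 and 322 CPM (-1.12 ± 0.24, edgeR adjusted p = 0.00107). Calb2, the calcium buffer calretinin, was at 57.8, 27.6, 15.7 and 16.4 CPM, and Slc32a1, the vesicular GABA transporter, at 94.8, 65.5, 62.7 and 41.1 CPM. TG_PS19 was lowest for 3 of these 4 and lay within the PS19 pair for Calb2. Reln, Ndnf and Calb2 are also on the marker list of Cajal-Retzius neurons, whose part in these values was not tested. Cpa6, a carboxypeptidase, was at 14.1, 5.17, 25.5 and 112 CPM and was higher in TG_PS19 (2.98 ± 0.38, edgeR adjusted p = 1.41e-11). The glutamate transporter Slc17a6, which marks excitatory neurons outside this class, was at 0.741, 22.4, 14.7 and 23.9 CPM in the same nuclei, and Prkcd, a protein kinase C, was counted 0 times in WT and was at least 18.0-fold higher in TG_PS19. The class holds several neuron types, and in pooled nuclei fewer cells of one type and less RNA per cell cannot be told apart.

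Among fibroblasts, the collagen genes Col8a1 and Col25a1 were lower, at 195, 155, 184 and 89.5 CPM (-1.12 ± 0.25, edgeR adjusted p = 0.00115) and at 690, 204, 350 and 395 CPM (-0.80 ± 0.19, edgeR adjusted p = 0.00202), of 18 collagen genes tested, beside 0.808% of all fibroblast genes lower. The first was lowest in TG_PS19 and the second in the PS19 pair. Fmo2, a flavin monooxygenase, was counted 47 times in WT fibroblasts and 0 times in TG_PS19, at least 6.95-fold lower. In oligodendrocyte precursors, Enpp6, a marker of cells turning into oligodendrocytes, was at 15.8, 141, 173 and 53.5 CPM (1.76 ± 0.33, edgeR adjusted p = 0.00449), and Id2, an inhibitor of differentiation, at 45, 17.6, 21 and 11.7 CPM (-1.94 ± 0.36, edgeR adjusted p = 0.00372). The precursor class included a cluster of committed precursors, with 5 nuclei in WT, 22 and 30 in the PS19 replicates and 17 in TG_PS19. Without that cluster, left out after the data had been seen, 4 remaining differences were counted in the class in place of 24. Id2 was still lower there (-1.87, edgeR adjusted p = 0.00390), and Enpp6 was not tested. Markers of mature oligodendrocytes summed to 630, 1250, 1975 and 1256 CPM in the precursors, with 4 of 8 higher in TG_PS19 than in WT and none at 0. Without the committed cluster, the log2 difference from WT went from 2.27 to -0.03 for Mbp and from 1.21 to -0.23 for Mag. St18 went from 1.98 to -0.96 and Mobp from 4.55 to 1.71. The part of mature oligodendrocyte RNA in the other values of the class was not tested. In endothelial cells 0 of 20 blood-brain barrier genes were called by edgeR, 2 before adjustment and 0 by DESeq2, and in mural cells 0 of 8 collagen genes, 1 before adjustment and 0 by DESeq2. The same held for 14 myelin genes in oligodendrocytes, 3 of them below 0.05 before adjustment, and for 12 astrocyte homeostasis genes, 2 of them below 0.05 before adjustment, with 0 called by edgeR and 0 by DESeq2.

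Marker RNA of other cells moved with some of these classes. Astrocyte markers in oligodendrocytes summed to 725 CPM in WT, 305 and 266 in PS19 and 517 in TG_PS19, with 3 of 8 lower than WT. Fibroblast markers summed to 64.3, 26.6, 24.3 and 27.3 CPM there, with 2 of 8 lower, and to 32.0, 17.4, 15.7 and 15 CPM in granule neurons, where Dcn was lower. No marker of these lists was at 0 in any library. The lower remaining genes Vtn, Bmp6 and Id3 of oligodendrocytes lie in the same direction, Bmp6 at 20.4, 4.19, 5.72 and 5.89 CPM, and the part of other cells in them was not tested. Ttr, the transport protein of choroid plexus epithelium, was new and higher in 5 classes, and was looked at after its values had been seen. It was at 29.3, 44.0, 27.3 and 66.2 CPM in oligodendrocytes, 31.7, 40.4, 31.9 and 99.8 CPM in microglia and 23.4, 37.6, 35.3 and 86.9 CPM in fibroblasts, highest in TG_PS19 in each. Markers of choroid plexus epithelium summed to 119, 87.9, 80.2 and 140 CPM in microglia and 57.2, 101, 72.0 and 119 CPM in inhibitory neurons, with Ttr the only one called, and of the 6 markers 3 in TG_PS19 microglia and 0 in TG_PS19 inhibitory neurons were at 0. Their part in the Ttr level was not tested.

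Most new higher genes were not protein-coding. Of the 1080 pairs, 37.7% were protein-coding, against 82.5% of all tested pairs, and 55.5% were non-coding genes that overlap a protein-coding gene on the other strand, against 8.88%. Since counting by strand is not stated, these genes cannot be told apart from unspliced RNA of the coding gene. The 241 new lower pairs were 89.2% protein-coding, with a median gene length of 14.4 kb beside 26.9 kb for all tested pairs. In 3 or more classes 83 genes were new, 78 of them higher in each class and 3, Actg1, Btg2 and Psap, lower in each. Far1os, annotated antisense to Far1, was called in 7 classes and was at 129, 105, 126 and 195 CPM in granule neurons and 161, 131, 162 and 248 CPM in oligodendrocytes, above all other libraries in both. Gm44511, which overlaps the receptor genes Klrb1b and Klrb1c, was also called in 7 classes. It was at 25.5, 23.1, 25 and 69.4 CPM in granule neurons (1.44 ± 0.16, edgeR adjusted p = 1.35e-16) and at 42.5, 49.0, 48.0 and 104 CPM in oligodendrocytes (1.30 ± 0.16, edgeR adjusted p = 3.26e-08), with TG_PS19 highest in both and in both kinds of nuclei.

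The shift also appeared in the share of all UMIs. Autosomal long non-coding genes other than Malat1 took 6.50% of UMIs in WT granule neurons, 6.07% and 6.22% in PS19 and 7.26% in TG_PS19. In microglia the shares were 6.83%, 6.35%, 6.63% and 7.78%, and in inhibitory neurons 7.94%, 7.58%, 8.05% and 8.92%. TG_PS19 had the highest share in all 11 classes, and its Y-linked and Xist nuclei were close, at 7.22% and 7.27% in granule neurons and 7.68% and 7.73% in microglia. A property of the 1 TG_PS19 library and of its genotype cannot be told apart here.

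**Figure D5:**
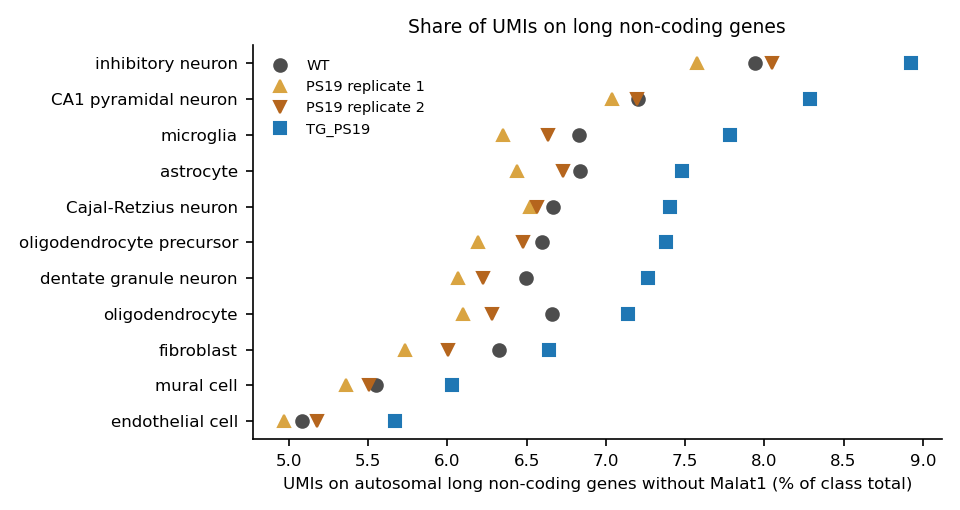
Percent of UMIs from autosomal long non-coding genes other than Malat1 (axis of shares) in the 11 classes, with 1 point per library. TG_PS19 is highest in all 11 classes, for example at 7.26% against 6.07% to 6.50% in granule neurons.

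The Rosa26 locus, where the SORLA transgene was placed, is on chromosome 6, with the non-coding gene Gt(ROSA)26Sor at 113067428 to 113077333. This gene was at 31.6 CPM in WT astrocytes, 41.3 and 40.7 in PS19 and 59.3 in TG_PS19, above all others (0.91 ± 0.19, edgeR adjusted p = 0.000410). In granule neurons it was at 25.2, 29.5, 33.5 and 20.4 CPM and in oligodendrocytes at 29.5, 32.1, 35.0 and 23.5 CPM, lowest in TG_PS19 and not called. Within 5 Mb, 98 genes gave 632 tested pairs, of which 26 differed between TG_PS19 and WT (4.11%, against 2.01% of all pairs) and 29 between PS19 and WT (4.59%, against 3.06%), and 15 were new (2.37%, against 1.03%). Timp4, an inhibitor of metalloproteinases, was at 44.0, 34.7, 42.3 and 82.9 CPM in granule neurons (0.92 ± 0.14, edgeR adjusted p = 1.70e-08) and highest in TG_PS19 there and in CA1 neurons, at 38.7, 39.9, 41.7 and 74.9 CPM. Within 2 Mb of Rosa26, 6 of 298 pairs were called (2.01%), near the share of all pairs.

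Class shares of the named nuclei also differed. Oligodendrocytes made up 30.1% of named WT nuclei, 42.1% and 40.8% of the PS19 replicates and 37.0% of TG_PS19, so that TG_PS19 lay 6.89 points above WT and the PS19 pair differed by 1.31 points. Astrocytes made up 25.3%, 14.3%, 15.2% and 20.3%, and oligodendrocyte precursors 3.31%, 5.62%, 5.74% and 7.13%, with TG_PS19 the highest for precursors. Fibroblasts made up 7.91%, 7.60%, 6.31% and 4.33%, and dentate granule neurons 14.8%, 11.1%, 12.0% and 12.3%. Microglia, at 5.42%, 5.92%, 6.11% and 5.06%, differed between TG_PS19 and WT by -0.355 points. Choroid plexus epithelium held 0 nuclei in WT, 24 and 24 in PS19 and 40 in TG_PS19, and ependymal cells 0, 26, 12 and 11. With doublets kept, the numbers were 40, 24, 25 and 41 for the first and 18, 27, 12 and 17 for the second. Differences in shares were not tested. Nuclei in unnamed clusters were 5.40%, 2.84%, 3.09% and 9.62% of those kept.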

How the data were processed

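Nuclei of 4 libraries of frozen mouse hippocampus (1 WT, 2 PS19 and 1 TG_PS19) were run on a 10x 3′ v3.1 kit, per the labels' protocols. The deposited values are counts of UMIs per gene and nucleus, for which the authors used Cell Ranger 7.1.0 and GRCm38, per the submitters' processing notes, and human MAPT and SORL1 were among the counted genes. The annotation release and the handling of introns and strand are not given in the sources used here. Gene positions, types and strands were taken from the GENCODE M21 annotation.

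Nuclei were kept from 500 UMIs and 300 genes upward, if mitochondrial RNA took no more than 5% of UMIs, and doublets were removed with a reimplementation of the Scrublet method in Python 3.11.15 at an expected rate of 0.8% per 1000 nuclei. This removed 10.2% of barcodes in WT, 3.70% and 3.94% in the PS19 replicates and 7.78% in TG_PS19. Clustering used 2000 variable genes, 30 principal components, 15 neighbours and Leiden resolution 1.0 (leidenalg 0.10.2), and gave 28 clusters, named from marker lists. UMIs were summed per library and class, and edgeR 4.0.16 (R 4.3.3; filterByExpr, trimmed-mean scaling, quasi-likelihood F-test, Benjamini-Hochberg adjustment over all genes of a class) was fitted to all 4 libraries with 3 groups, which leaves 1 residual degree of freedom. The fitting script was tested on simulated counts. Levels are CPM on the trimmed-mean scale unless stated, totals are given in the report, and intervals and the floor of 3 counts cover counting error only. Genes were named from the remaining, new and not carried sets (the 3 largest differences per class and direction with at least 10 CPM, and genes repeated in 3 or more classes), from 23 gene lists, and from called genes within 5 Mb of Rosa26 and Gm43049. Exceptions are marked, and a few genes that the rules name are not reported here. The members and lists were chosen with earlier results of these data known. Alternatives were DESeq2 1.42.0, other scalings and priors, no low-count filter, doublets kept, Leiden resolution 2.0, nuclei thinned to 1000 UMIs and TG_PS19 nuclei split by sex-linked UMIs.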

Additional observations from a re-analysis of the deposited data

Results flagged for a closer look

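Among pairs of gene and class described singly, 13 had Y-linked TG_PS19 nuclei below WT and Xist nuclei above it. Of the 274 remaining higher pairs tested in both kinds, 233 lay above WT in Y-linked nuclei and 273 in Xist nuclei. The difference between the 2 kinds was not tested, since they come from 1 library with no replicate. In oligodendrocytes the log2 differences from WT were -0.83 and 2.51 for Sgk1, -0.19 and 1.96 for Fkbp5, -0.03 and 1.69 for Pdk4, and -0.39 and 2.17 for Per2, with the Y-linked nuclei first. Astrocytes gave -0.46 and 1.99 for Fkbp5, -0.24 and 2.06 for Zbtb16, and -0.45 and 1.13 for the X-linked Tsc22d3. In microglia Fkbp5 gave -0.35 and 1.43. Endothelial cells gave -0.81 and 2.39 for Fkbp5, and -1.03 and 2.39 for the transcription factor St18, on 34 Y-linked nuclei. Fibroblasts gave -0.57 and 4.24 for Cyp26b1, -1.07 and 1.45 for Fkbp5, and -0.47 and 1.68 for Zbtb16.

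A cluster that no marker list named held 653 TG_PS19 nuclei, 7.29% of those kept, against 111 WT nuclei (0.969%) and 9 and 8 PS19 nuclei, and entered no comparison. Its nuclei had a median of 1008 UMIs, its leading genes were Ttr, Dynlt1a and Cst3, and 450 of the TG_PS19 nuclei held Xist UMIs alone against 15 with Y-linked UMIs alone.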

How the results depend on the processing

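With DESeq2 the counts fell to 102 differences from WT, 17 remaining, 62 new and 183 not carried, and 16 of 138 named edgeR calls were kept, against 122 to 134 under the other scalings, priors, filter, doublet and cluster settings, 55 of 116 with nuclei thinned to 1000 UMIs, 66 of 135 in Y-linked and 113 of 136 in Xist nuclei. Thinning gave 698, 148, 286 and 648, and Y-linked TG_PS19 nuclei alone gave 1468, 287 and 840 for the first 3 counts. The other scalings, priors, filter, doublets, cluster resolution and Xist nuclei alone kept all 4 counts within 1.5 times. Within 2 Mb in place of 5 Mb, 6 pairs near Rosa26 and 5 near Gm43049 were called, in a smaller window. TG_PS19 minus WT shares were -2.45 points for astrocytes and -4.65 for fibroblasts with Y-linked nuclei alone, and 4.96 for oligodendrocytes over all kept nuclei. In Y-linked nuclei alone the log2 difference from WT reversed for 13 of the pairs described singly. These were Fkbp5 (astrocytes -0.46, endothelial cells -0.81, fibroblasts -1.07, microglia -0.35, oligodendrocytes -0.19) and Zbtb16 (astrocytes -0.24, fibroblasts -0.47). The others were Tsc22d3 (astrocytes -0.45), St18 (endothelial cells -1.03), Cyp26b1 (fibroblasts -0.57), Pdk4 (oligodendrocytes -0.031), Sgk1 (oligodendrocytes -0.83) and Per2 (oligodendrocytes -0.39). Of the pairs described singly, thinning reversed Rab3a in granule neurons (0.21), St18 in endothelial cells (-0.10) and Slc32a1 in inhibitory neurons (0.10). The cause was not tested. Leaving out a PS19 replicate leaves no residual degrees of freedom, so it gave values and no calls, none of which reversed among the named genes. No paired analysis was possible because WT and TG_PS19 have 1 library each and share fewer than 2 replicate numbers with PS19.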

Other observations

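A second unnamed cluster was made up almost wholly of WT nuclei, with 286 in WT, 0 in both PS19 libraries and 1 in TG_PS19. Its leading genes were Sntb1, Fabp7 and Plekha4, and it entered no comparison.

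In oligodendrocytes the pseudogene Gm28438 was counted 0 times in WT and in both PS19 libraries and 46 times in TG_PS19, at least 15.9-fold higher than the WT floor of 3 counts. It was singled out after its values had been seen, and counts of a pseudogene can come from similar genes. The prolactin receptor gene Prlr was at 6.67, 6.89, 9.79 and 44.1 CPM in inhibitory neurons, highest in TG_PS19, and at 6.23, 17.9, 13.8 and 6.29 CPM in dentate granule neurons, where only the PS19 pair was high.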
